A study of Mus musculus with 6 samples.

Results

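The genes described here are 10 Eph receptors and ephrins of the intestinal crypt, chosen by name: the receptor genes Ephb2, Ephb3, Ephb4, Ephb6, Epha1 and Epha2 and the ligand genes Efnb1, Efnb2, Efna1 and Efna4. Of these 10, 9 were measured among 19057 genes, by 15 probes, and Ephb2 was not analysed here. Expression was read on Illumina arrays from mouse small intestinal organoids, epithelial structures grown in culture from crypts. The 3 Snai1 knockout samples came from Villin-Cre, Snai1 fl/fl mice and the 3 control samples from Villin-Cre mice without floxed alleles. Organoids of both groups carried the transgene and had received tamoxifen at 0.5 µM, 24 hours before harvest. The Villin promoter drives Cre in the intestinal epithelium. The labels give neither the age of the mice nor whether replicates came from separate animals or cultures, so the p-values speak only of the spread among these arrays, which may be technical.

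Eph receptors are tyrosine kinases of the cell surface, and their ephrin ligands are bound to the membrane of the neighbouring cell, A-type ephrins through a lipid anchor and B-type ephrins as transmembrane proteins. On contact, both cells receive a signal, and cells with many receptors move away from cells with many ligands. In the mouse intestine, EphB2 and EphB3 are made in crypt cells under the control of Wnt signalling, and ephrin-B1 is made towards the villus. This keeps the compartments apart, and EphB3 also holds Paneth cells at the crypt base.

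Snai1 encodes a zinc-finger repressor that binds the E-box CAGGTG, which reads CACCTG on the other strand. Promoter windows from RefSeq (GRCm38.p6), running from 250 bases before to 50 after a gene's start, were searched on both strands for these letters. The E-box was present in 3 of the 11 windows of the 10 genes, those of Epha1, Efnb2 and Ephb2, against 20.2% of all 32851 windows, in which a gene can have several. The Tcf motifs CTTTGA and CTTTGT, bound by the effectors of Wnt signalling, were each in 1 of the 11 windows (Epha2 and Efna4), against 16% and 18.7% of all windows. Shown here are 120 bases from the windows of the measured genes with an E-box, in capitals, and from that of Ephb4, a receptor described in detail here, where there was none. The E-box began 71 bases before the start of Epha1 and 167 bases before that of Efnb2. A match is a run of letters and not an observed binding site.
Epha1, chr6:42373280-42373399, minus strand: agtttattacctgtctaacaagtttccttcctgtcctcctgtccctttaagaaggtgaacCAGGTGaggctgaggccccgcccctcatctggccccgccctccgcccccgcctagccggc
Efnb2, chr8:8661350-8661469, minus strand: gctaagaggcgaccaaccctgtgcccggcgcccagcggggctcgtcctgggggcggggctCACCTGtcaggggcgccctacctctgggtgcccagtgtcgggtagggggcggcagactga
Ephb4, chr5:137349989-137350108, plus strand: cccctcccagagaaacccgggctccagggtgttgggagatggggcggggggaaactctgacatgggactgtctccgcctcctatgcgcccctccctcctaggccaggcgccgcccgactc

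The values are on a log scale, taken as base 2, with a median of 7.87 over all probes, a lowest value of 7.71 and an upper quartile of 8.27. Values near the median are compressed, so differences of dim genes are understated. Snai1 itself read 7.91 ± 0.05 on knockout and 7.91 ± 0.04 on control arrays (SD, n = 3 each), near the median, so its probe does not check the labels. Of 12 markers of intestinal epithelium 11 lay above the upper quartile, the exception being Epcam (8.10 in knockout, 8.13 in control), and the mean of the list ran from 11.30 to 11.52 on knockout and from 11.26 to 11.56 on control arrays. None of 12 fibroblast and smooth muscle, 7 immune or 8 neuronal and glial markers did, and 1 of 10 endothelial markers did (Esam, 8.31 in knockout and 8.36 in control). Between knockout and control, limma called 25 of 19057 genes at an adjusted p under 0.05, which is 0.131% of genes, and 9, or 0.0472%, with the replicate number as a block.

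No Eph receptor or ephrin gene passed this threshold, 0 of 9 members by limma with or without the block. Means were higher in the knockout for 6 members and lower for 3, while 9393 of all 19057 genes had a higher mean. The median difference was 0.013 on the log2 scale against -0.001 over all genes. The groups overlapped in all 9, while in 12.0% of all genes the groups were separate. On the deposited values of all 6 arrays, the largest differences were 0.15 for Ephb4 and -0.11 for Efnb1, an order that changed in other settings, such as without knockout replicate 2 (0.095 for Ephb4 and 0.153 for Epha1), without control replicate 3 (0.146 for Ephb4 and -0.154 for Efnb1) and with the lowest value subtracted before the log (0.167 for Ephb4 and 0.169 for Ephb3). At an unadjusted p under 0.05 there was 1 member, Ephb4, against 7.22% of all genes and 14.9% of the 6969 genes above the upper quartile. With the block there was again 1, Efnb1, against 10.9% of all genes and 25.8% of those above the upper quartile. Arrays of the same replicate number were treated as pairs. In 4 of the 9 members all 3 pairs went one way, against 30.7% of all genes and 2659 of the 6969 above the upper quartile. Among these 4 was the dim Ephb3, with pair differences of 0.00, 0.09 and 0.01. In such bulk RNA, fewer cells of a type and less RNA per cell cannot be told apart.

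**Figure D1:**
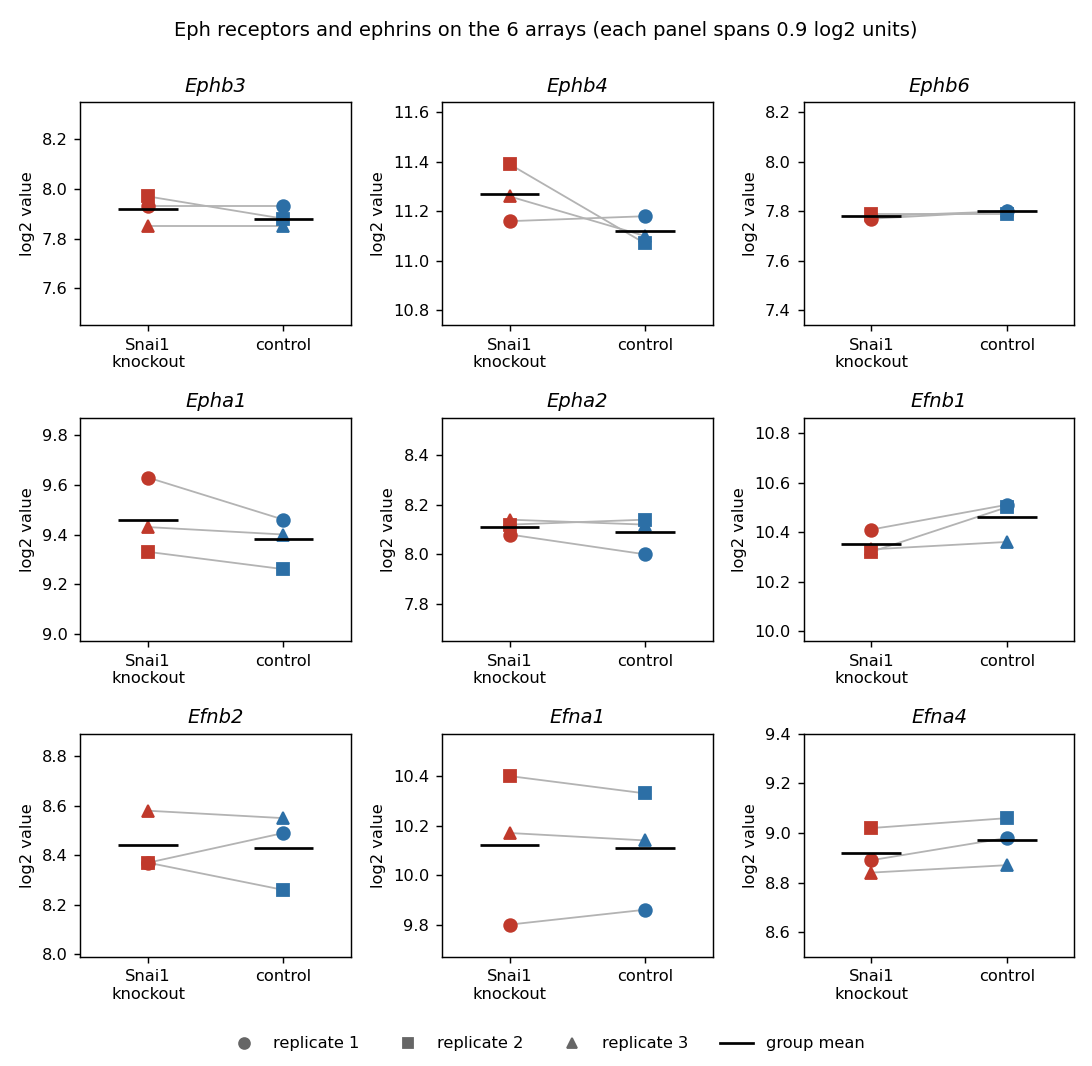
Log2 value (vertical axis) of each measured gene on the 3 Snai1 knockout arrays (left, red) and the 3 control arrays (right, blue), with lines joining arrays of the same replicate number and black bars for group means. The groups overlap in every panel. The lines for Efna1 and Efna4 run nearly parallel, and for Efna1 the arrays of a number lie close together.

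Among the EphB receptors, Ephb4, best known as the receptor for ephrin-B2 on veins and also present in gut epithelium, was bright, above 95.7% of all probes. It read 11.16, 11.39 and 11.26 on knockout arrays 1 to 3 and 11.18, 11.07 and 11.10 on control arrays 1 to 3. Knockout replicates 2 and 3 lay above all 3 controls, while knockout replicate 1 lay just below the highest control. The difference was 0.15 ± 0.06 (SE), a 1.11-fold level in the knockout with a 95% interval of 1.00 to 1.24 (limma, adjusted p = 0.69, and 0.56 with the block). Without knockout replicate 2 it was 0.095 and without knockout replicate 1 it was 0.207. Of the 10 endothelial markers, 9 lay below the upper quartile, and Esam, the other, read 8.31 in the knockout and 8.36 in control. The mean of that list ran from 7.90 to 7.91 on knockout and from 7.90 to 7.94 on control arrays, and its part in the result was not tested.

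Ephb4 had further probes, and these gave smaller differences. The probe with a mean of 9.73 read 9.73, 9.81 and 9.76 in the knockout, against 9.66, 9.73 and 9.69 in control. Its difference was 0.07 ± 0.03, and the 3 pair differences were 0.07, 0.08 and 0.07, so it was higher in 3 of 3 pairs by nearly the same amount (adjusted p = 0.81 over all 45281 probes, limma, and 0.38 with the block). The brightest probe was higher in only 2 of 3 pairs (-0.02, 0.32 and 0.16). The dimmest probe, with a mean of 8.29, differed by 0.04 ± 0.02. All 3 probes thus had a higher mean in the knockout, by unequal amounts, and no probe of any member passed over all probes, of which 0.0883% were called.

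Ephb3, the Wnt-dependent receptor that positions Paneth cells, was represented by 1 probe close to the median of the array. It read 7.93, 7.97 and 7.85 in the knockout and 7.93, 7.88 and 7.85 in control, which leaves no array apart from the others. The difference was 0.03 ± 0.04 (SE; limma, adjusted p = 0.95), and 57.1% of all probes were dimmer. Leaving out each array in turn gave 0.009 (without knockout replicate 2) to 0.066 (without knockout replicate 3). Ephb6, a receptor that lacks kinase activity, was read by 1 probe in the lowest range of the array, brighter than 4.1% of probes. Its 6 values lay between 7.77 and 7.80, and the difference was -0.01 ± 0.02 (adjusted p = 0.96). For both genes the level lay in the compressed part of the scale, where a fall has little room to show.

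**Figure D2:**
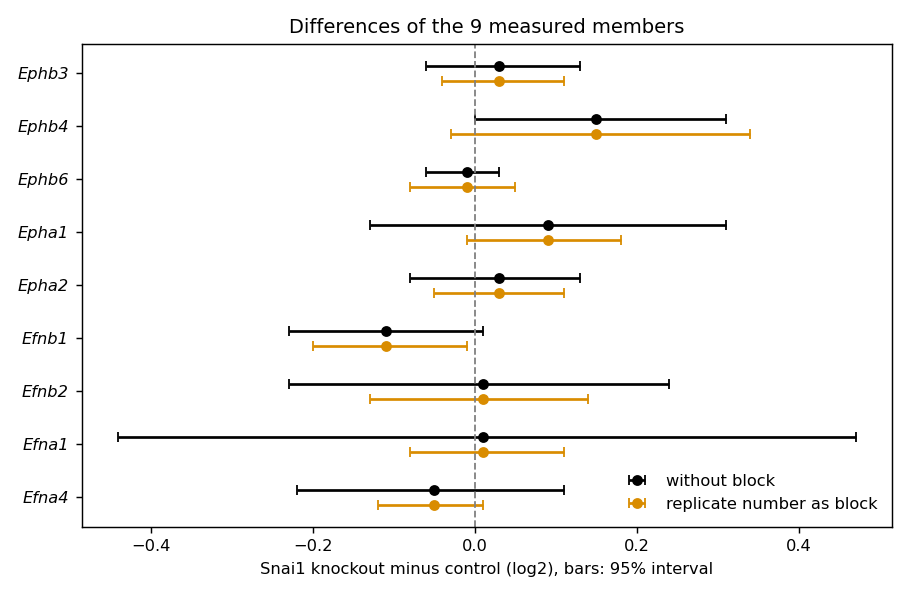
Difference between Snai1 knockout and control (log2, horizontal axis) for the 9 measured genes, with 95% intervals from limma without a block (black) and with the replicate number as a block (orange). All black intervals cross 0 except that of Ephb4, which begins at 0.00, and that of Efna1 shrinks most with the block, from -0.44 to 0.47 without it and from -0.08 to 0.11 with it.

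Of the EphA receptors, Epha1, an epithelial receptor, read 9.63, 9.33 and 9.43 in the knockout and 9.46, 9.26 and 9.40 in control. Arrays numbered 1 were the highest in each group and those numbered 2 the lowest. The difference was 0.09 ± 0.09 (SE; limma, adjusted p = 0.94), with pair differences of 0.17, 0.07 and 0.03. With the replicate number as a block its SE was 0.04 (adjusted p = 0.51). The mean was higher in the knockout for all 4 probes of Epha1, by 0.04 to 0.10. Without knockout replicate 1 the difference of the brightest probe was 0.003. That fit had no block and kept control replicate 1, the highest control. Epha1 is one of the measured genes with the E-box shown above, and Efnb2, the other, differed by 0.01.

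Epha2, a receptor for A-type ephrins that is abundant in many epithelial tumours, was dim in these organoids, at 8.08, 8.12 and 8.14 in the knockout and 8.0, 8.14 and 8.12 in control. Only control replicate 1 lay away from the rest, and the difference was 0.03 ± 0.04 (SE; limma, adjusted p = 0.98). Without control replicate 1 it was -0.018.

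**Figure D3:**
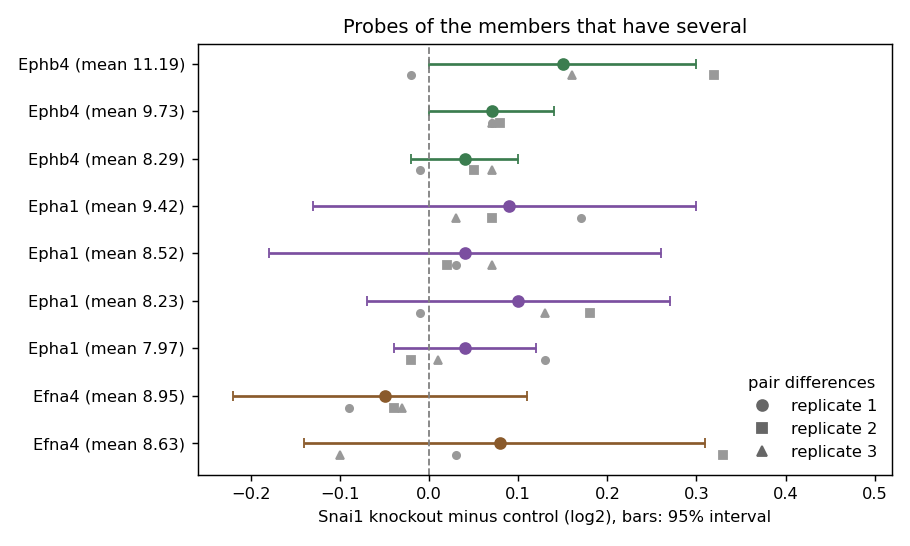
Difference between Snai1 knockout and control (log2, horizontal axis) for each probe of Ephb4, Epha1 and Efna4, labelled with its mean over the 6 arrays, with 95% intervals from limma over all probes and small grey symbols for the 3 pair differences. The 3 probes of Ephb4 and the 4 of Epha1 have means above 0, and the 2 of Efna4 lie on opposite sides of it.

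Among the ligands, Efnb1, which encodes the transmembrane ligand that confines EphB-bearing crypt cells, read 10.41, 10.32 and 10.33 in the knockout and 10.51, 10.50 and 10.36 in control. Control replicates 1 and 2 lay above the other 4 arrays, while control replicate 3 lay among the knockout values. The mean was 10.35 ± 0.05 in the knockout and 10.46 ± 0.08 in control (SD, n = 3 each). The difference was -0.11 ± 0.05 (SE), a 0.93-fold level with a 95% interval of 0.85 to 1.01 (limma, adjusted p = 0.75). It was lower in 3 of 3 pairs (-0.10, -0.18 and -0.04), and the blocked interval ran from -0.20 to -0.01 with an adjusted p of 0.41. Leaving out each array in turn gave -0.154 to -0.081.

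Across the 6 arrays, the gene-centred profile of Efnb1 was closest to those of Erp29, Cyc1 and Ranbp3. Their root mean square differences from it were 0.007, 0.015 and 0.020 log2 units, the smallest among 6968 other genes above the upper quartile. These 3 are given as a description of 6 arrays. Erp29 differed by -0.10 ± 0.05 between knockout and control, Cyc1 by -0.08 ± 0.05 and Ranbp3 by -0.09 ± 0.04 (SE), and none passed.

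Efnb2, the other B-type ligand, read 8.37, 8.37 and 8.58 in the knockout and 8.49, 8.26 and 8.55 in control. The arrays numbered 3 were the highest of each group, and the groups covered the same range. The difference was 0.01 ± 0.09 (SE; limma, adjusted p = 1.0), with pair differences of -0.12, 0.11 and 0.03. The 95% interval without the block was 0.86-fold to 1.18-fold on the deposited scale. With the block it ran from -0.13 to 0.14 in log2 units.

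Efna1, a lipid-anchored ligand of EphA receptors, varied most of the 9 genes, along the replicate numbers. It read 9.80, 10.40 and 10.17 in the knockout and 9.86, 10.33 and 10.14 in control. The 2 arrays of each replicate number lay within 0.07 of each other, while the 6 arrays spanned 0.61, a wider span than 96.0% of genes above the upper quartile. The difference between the groups was 0.01, with an SE of 0.18 that fell to 0.03 with the block (limma, adjusted p = 1.0 and 0.97). Within pairs it was -0.06, 0.07 and 0.03.

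Efna4, another lipid-anchored ligand, was read by 2 probes that disagreed. The brighter read 8.89, 9.02 and 8.84 in the knockout and 8.98, 9.06 and 8.87 in control, lower in 3 of 3 pairs by 0.09, 0.04 and 0.03, with a difference of -0.05 ± 0.07 (SE; limma, adjusted p = 0.96, and 0.58 with the block). Leaving out each array gave -0.106 (without control replicate 3 or knockout replicate 2) to -0.008 (without control replicate 2). The other probe read 8.57, 8.88 and 8.56 in the knockout and 8.54, 8.55 and 8.66 in control, a difference of 0.08 ± 0.09. Knockout replicate 2 stood above the other 5 arrays on that probe and not on the first. No direction for Efna4 can be given from both probes.

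The replicate number was then tested itself, in the fit with both terms and after the values had been seen. Limma's F test called 0 of 19057 genes at an adjusted p under 0.05, while 12.3% of all genes had an unadjusted p under 0.05. Of the members, 4 of 9 did, namely Efna1 (adjusted p = 0.16), Efna4 (0.22), Epha1 (0.25) and Efnb2 (0.34). All 4 lay above the upper quartile, where 2118 of 6969 genes had an unadjusted p under 0.05 in this test. Efna1 averaged 9.83, 10.37 and 10.15 on arrays numbered 1, 2 and 3, and Epha1 averaged 9.55, 9.29 and 9.42. The labels do not say what arrays of a number have in common.

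The remaining 12 Eph and ephrin genes on the array, among them Epha4, Epha7 and Ephb1, all lay at or below the upper quartile, and none passed. Their differences ran from -0.04 to 0.04 on this compressed part of the scale. Of 12 genes, Epha6 had all 3 knockout values above control (0.04 ± 0.02, SE) and Epha7 all 3 below (-0.04 ± 0.02), which makes 16.7% of these genes without overlap, against 12.0% of all genes. Efnb3 differed by 0.03 and Ephb1 by -0.03. Among the measured receptors and ligands, those with a mean above the upper quartile were therefore the 6 members Ephb4, Epha1, Efnb1, Efnb2, Efna1 and Efna4. The level of Ephb2 is not known here, as it was not analysed.

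Genes that relay Eph and ephrin signals, a list of kinases, adaptors, exchange factors and proteases, likewise gave no call among 36 measured genes. Means were higher in the knockout for 21 and lower for 15, with a median difference of 0.013. Of all 19057 genes, 9393 had a higher mean, and of the 6969 above the upper quartile 3582 did. At an unadjusted p under 0.05 there were 5, all higher, which is 13.9% of the list. In either direction, the shares were 7.22% of all genes and 14.9% of those above the upper quartile. Counting only genes that were higher in the knockout, these shares were 3.88% and 8.32%. Of the 36 genes, 21 lay above the upper quartile. The 4 of lowest p were Tiam1, a Rac exchange factor (0.17 ± 0.05, SE), Grb7, an adaptor of receptor tyrosine kinases (0.16 ± 0.05), Vav3, an exchange factor recruited by activated Eph receptors (0.22 ± 0.08), and Inppl1, which encodes the lipid phosphatase SHIP2 and binds EphA2 (0.14 ± 0.05). Their adjusted p ran from 0.45 for Tiam1 to 0.62 for Inppl1 (limma), and each was higher in 3 of 3 pairs. Vav3 differed by 0.06, 0.15 and 0.44 in the pairs, so replicate 3 carried most of its difference.

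**Figure D4:**
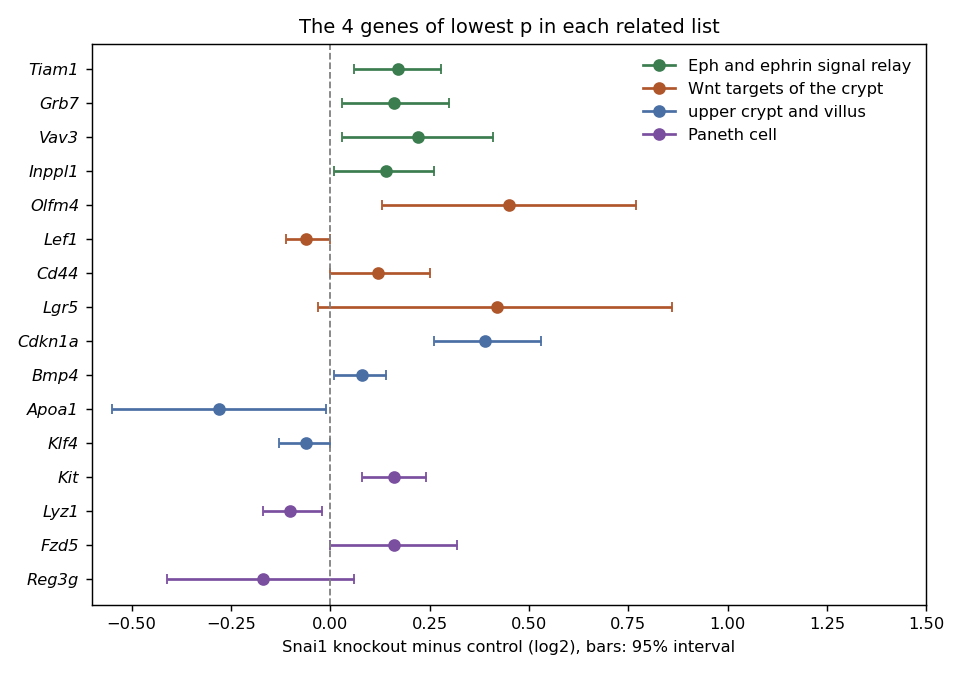
Difference between Snai1 knockout and control (log2, horizontal axis, bars for 95% intervals from limma) for the 4 genes of lowest p in the lists of Eph signal relay, Wnt targets, upper crypt and villus, and Paneth cells. The genes were picked by low p, so an interval that leaves out 0 is no separate evidence of a difference. None of these genes passed over all genes.

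Lists of the compartments that Eph signals divide gave no call either. Of 16 Wnt targets of the crypt, the programme to which Ephb2 and Ephb3 belong, 13 had a higher mean in the knockout, with a median difference of 0.050. A higher mean was found for 9393 of all 19057 genes and 3582 of the 6969 above the upper quartile. The list was chosen with earlier results of these data known, and 7 of its 16 genes lay at or below the upper quartile. Of the 16, 2 had an unadjusted p under 0.05. That is 12.5%, against 7.22% of all genes and 14.9% of those above the upper quartile. With the block 5 did, which is 31.2%, against 10.9% of all genes and 25.8% of those above the upper quartile. The stem cell markers Olfm4 and Lgr5 differed by 0.45 ± 0.13 and 0.42 ± 0.18 (SE), the adhesion receptor Cd44 by 0.12 and the Wnt effector Lef1 by -0.06. Lgr5 was higher in 3 of 3 pairs, by 0.35, 0.45 and 0.44, and its SE with the block was 0.03 (limma, adjusted p = 0.73, and 0.069 with the block). Of 14 genes of the upper crypt and villus, 10 had a lower mean, with a median of -0.023, and 3, or 21.4%, had an unadjusted p under 0.05 (2 with the block). A lower mean was found for 9664 of all 19057 genes and 3387 of the 6969 above the upper quartile. The apolipoprotein gene Apoa1 differed by -0.28 and the factor Klf4 by -0.06, against 0.39 for the cell cycle inhibitor Cdkn1a and 0.08 for the dim Bmp4. Of 12 Paneth cell genes, 7 had a lower mean, and 2, or 16.7%, had an unadjusted p under 0.05 (3 with the block). Lyz1, the lysozyme, differed by -0.10 and Reg3g by -0.17, against 0.16 each for Kit and for the Wnt receptor gene Fzd5. The lowest adjusted p in these 3 lists were 0.48, 0.14 and 0.28 (limma), and with the block 0.069 for Lgr5, 0.15 for Cdkn1a and 0.18 for Fzd5.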

How the data were processed

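RNA of 6 organoid samples was labelled as biotinylated cRNA and hybridised to Illumina arrays, per the labels' protocols. The deposited table holds 1 log2 value per probe and array, 45281 in all. Sorted values differed between arrays by at most 0.0019, which shows that quantile normalization came before the values were deposited. The log base is assumed, and the sources used here give no background correction, software or genome build. The number of arrays limits the precision, and no detection calls were used.

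The platform's annotation paired 34885 probes with 1 gene, 18 with several and 10378 with none listed. By gene number, the GRCm38.p6 gene table held 34807 of the probes with 1 gene, with no symbol changed. The brightest probe by mean over the 6 arrays stood for a gene. Ephb2 was not analysed here. Groups came from the titles. Knockout was compared with control in R 4.3.3 by limma 3.58.1, using lmFit, then eBayes with no trend, and Benjamini-Hochberg adjustment over 19057 genes (over all probes for single probes). The fit was tested on simulated data. Lists were described by counts and medians only. Named besides the members are the 4 genes of lowest p per list, the 3 profiles nearest to Efnb1 and the measured genes next to a member. Members and lists were chosen with earlier results of these data known.

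Replicate numbers recur in both groups. Deviations from the group means correlated at r = 0.35, 0.33 and 0.46 over genes for replicates numbered 1, 2 and 3, and all 6 arrays correlated best with their own number, so the numbers were taken as pairing the arrays in the blocked fit. Alternatives covered the block, normalization, low values, dim genes, several probes, the variance model, array weights and leaving out each array. All but the block itself were fitted without it.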

Additional observations from a re-analysis of the deposited data

How the results depend on the processing

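No member passed in any of the 16 other settings, and the lowest adjusted p of any member in any setting was 0.32, for Ephb4 without Snai1 knockout replicate 1 (limma). The count of members called was 0 and that of member probes 0 in every setting run for them. With the replicate number as a block, the count of all genes called was 9 in place of 25, and the block changed no call of a member. That count was 42 with the lowest value subtracted and 16 added before taking logs, 41 among genes above the upper quartile only, 60 with eBayes with a trend, and 40 probes in the fit over all probes. It ran from 4 to 23 when each array was left out, with 6, 15 and 9 without control replicates 1, 2 and 3, and 13 and 4 without knockout replicates 2 and 3. Some of those settings held fewer genes or arrays, and the cause of the changed counts was not tested.

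Of the 9 members, 5 kept their sign in every setting that held them: Ephb3, Ephb4, Ephb6, Epha1 and Efnb1. The sign turned for Efna4 with the mean of its probes (0.015) and for Efnb2 with array weights (-0.003). Leaving out each array gave -0.018 to 0.054 for Epha2, -0.081 to 0.066 for Efnb2 and -0.126 to 0.177 for Efna1. These fits had no block, so the array of the same number stayed in the other group. For genes that varied along the replicate numbers, such as Efna1, the part of this imbalance in the turned signs was not tested. For Efna1 the turned values were -0.112 without control replicate 1, and -0.126 and -0.011 without knockout replicates 2 and 3. For Efnb2 they were -0.081 without control replicate 2 and -0.063 without knockout replicate 3. Subtracting the lowest value widened dim members most, to 0.169 for Ephb3, 0.099 for Epha2 and -0.119 for Ephb6, with adjusted p of 0.91 to 0.95. Ephb6 was not held by the filter at the median, and Ephb3, Ephb6 and Epha2 not by that at the upper quartile. All 3 lay below the upper quartile, in the compressed part of the scale, which limits what their differences can show.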

Other observations

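The nearest measured genes on either side of each member along the GRCm38.p6 gene order were 17 genes, and none passed over all genes. At an unadjusted p under 0.05 there were 4, which is 23.5%, against 7.22% of all genes and 14.9% of those above the upper quartile. Slc50a1, a sugar transporter gene next to Efna1, averaged 9.49 in the knockout and 9.79 in control, a difference of -0.30 ± 0.07 (SE; limma, adjusted p = 0.34). Slc12a9, next to Ephb4, averaged 9.06 in the knockout and 8.81 in control, a difference of 0.26 ± 0.07 (adjusted p = 0.43), and Zan, on the other side of Ephb4, differed by -0.09 ± 0.03. Zyx, which encodes the focal adhesion protein zyxin and lies next to Epha1, averaged 11.39 in the knockout and 11.22 in control (0.17 ± 0.04, adjusted p = 0.28). Efna3, which lies between Efna1 and Efna4, read 7.91 in the knockout and 7.93 in control. The neighbours of Efnb1, Stard8 and Pja1, differed by -0.04 and 0.01.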
